A study of Mus musculus with 30 samples.

Results

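Long domains of H3K9me3, the trimethyl mark on lysine 9 of histone H3, were described across mouse chromosomes 1 to 19. The authors' called regions of 6 H3K9me3 ChIP-seq libraries were merged wherever they shared at least 1 bp. Merged regions of 30 kb or more that held a called region in all 6 libraries were kept and are called domains here. The length is that of the merged region, and a call over any part of it was enough. In 152 domains under 50% of the length was called in at least 1 library, with 4.92% as the lowest share. Only 75 domains were called over more than 90% of their length in every library. There were 712 domains among 44431 merged regions, and among 17339 merged regions called in every library. Length and the presence of a call chose the domains, so the domains were chosen by measured values and both are given below as descriptions.

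The series holds 30 samples in 10 groups of 3, all labelled as mouse embryonic stem cells, a pluripotent cell type from the early embryo. ChIP-seq was done on samples whose titles begin with EB, the usual short form of embryoid body, an aggregate of differentiating stem cells. The untreated group had 3 libraries. The group given DOX, the usual short form of doxycycline, had 3 unlike libraries, titled EB-DOX-D2, EB-DOX-D3 and EB-Er71-Flag-DOX-D2. ER71 is another name of ETV2. The labels explain neither D2 nor D3 and name no cell line for these libraries. Each ChIP library has a labelled input library, which holds no values of its own here.

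RNA-seq covered 3 experiments of 6 libraries each. Experiment 1 compared the line iETV2 as control and with DOX. ETV2 is a transcription factor that drives blood and endothelial fate, and the series' design text names its expression after DOX. Experiment 2 compared the line iETV2-KDM4A (H188A), called the H188A line here, as control and with DOX. KDM4A is a demethylase of H3K9me3. Experiment 3 compared a control genotype with cells labelled KDM4A/4C DKO. The design text gives DKO as short for a double knock of both genes, and KDM4C is a related demethylase. Whether a line is 1 clone, and the promoter that drives each transgene, are unstated. None of the labels say that replicates came from separate cultures, so p-values measure the spread between these samples, which may be technical.

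H3K9me3 is laid down by the enzymes SETDB1, SUV39H1 and SUV39H2 and is bound by HP1 proteins, and it marks compact chromatin with little transcription. Over repeats and over KRAB zinc finger gene clusters in stem cells it is placed by the TRIM28 and SETDB1 complex. Large gene families that are silent outside 1 tissue, such as odorant and vomeronasal receptors, often lie in such chromatin. KDM4 enzymes remove methyl groups from this residue.

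RNA libraries held 40334911 to 68970038 counts. Etv2 RNA was 2.93 ± 0.18 CPM (counts scaled to the same total in every library; SD, n = 3) in iETV2 controls and 18.6 ± 0.89 with DOX, and 0.376 ± 0.27 against 15.2 ± 3.5 in the H188A line. In experiment 3 the labels were only partly borne out: Kdm4a was 54.7 ± 0.94 CPM in controls and 43.9 ± 2.6 in cells labelled DKO, while Kdm4c was higher there, at 45.5 ± 2.6 against 30.7 ± 1.3. Kdm4a in the line named iETV2-KDM4A (H188A) was 83.5 ± 3.2 CPM in controls and 86.9 ± 2.9 CPM with DOX (SD, n = 3), a log2 change of 0.11 ± 0.05 that did not pass (edgeR adjusted p = 0.262), so a rise of the named transgene was not detected. For the genotype, RNA outside a deleted part can persist, so this check has limits, and the groups are written below as libraries labelled DKO and their controls. The control libraries of experiment 3 were low in stem cell markers. Pou5f1, Sox2, Nanog, Zfp42, Dppa5a and Esrrb summed to 39.0 to 43.2 CPM in them, against 1006 to 1058 in libraries labelled DKO and 606 to 651 in iETV2 controls. ChIP counts inside the domains ran from 2999999 to 5724282 per library, with 1508000 to 2173861 input counts.

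The promoters that return in the results below belong to KRAB-type zinc finger genes of 1 cluster of domains on chromosome 4. Shown are the 250 bases before the start of 5 of them, 5′ to 3′ on the gene's strand, from RefSeq on GRCm38.p6. These 5 were taken as related sequences, with pairwise identity from 66.6% (Zfp534 and Zfp979) to 94.1% (Zfp600 and Zfp979). Their genes, other than Zfp979, had some of the larger RNA differences. They were Zfp980 (chr4:145670447-145670696, plus strand), Zfp600 (chr4:146156577-146156826, plus), Zfp988 (chr4:147305354-147305603, plus), Zfp979 (chr4:147642509-147642758, minus) and Zfp534 (chr4:147702632-147702881, minus). Capitals mark the longest run of bases that 7 such promoters of the cluster share.
Zfp980: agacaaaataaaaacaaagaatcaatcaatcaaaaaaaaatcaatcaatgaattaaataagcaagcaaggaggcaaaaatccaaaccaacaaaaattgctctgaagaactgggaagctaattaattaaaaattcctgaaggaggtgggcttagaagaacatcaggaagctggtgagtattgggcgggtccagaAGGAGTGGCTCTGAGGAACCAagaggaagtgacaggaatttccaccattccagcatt
Zfp600: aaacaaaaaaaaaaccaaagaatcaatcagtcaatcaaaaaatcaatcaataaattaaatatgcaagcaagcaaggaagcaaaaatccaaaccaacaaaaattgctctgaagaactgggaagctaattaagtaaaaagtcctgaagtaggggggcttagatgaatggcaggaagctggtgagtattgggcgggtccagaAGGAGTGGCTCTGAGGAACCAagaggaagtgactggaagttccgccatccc
Zfp988: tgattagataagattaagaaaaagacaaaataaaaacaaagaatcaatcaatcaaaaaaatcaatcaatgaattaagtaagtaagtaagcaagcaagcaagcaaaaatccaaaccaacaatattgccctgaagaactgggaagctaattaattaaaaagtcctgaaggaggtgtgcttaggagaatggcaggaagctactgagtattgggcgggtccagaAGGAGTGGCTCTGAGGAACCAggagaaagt
Zfp979: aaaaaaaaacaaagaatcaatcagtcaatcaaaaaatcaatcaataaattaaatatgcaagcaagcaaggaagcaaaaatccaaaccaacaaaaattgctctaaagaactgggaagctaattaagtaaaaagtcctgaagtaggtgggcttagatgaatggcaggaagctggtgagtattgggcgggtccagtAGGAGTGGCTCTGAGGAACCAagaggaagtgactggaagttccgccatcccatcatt
Zfp534: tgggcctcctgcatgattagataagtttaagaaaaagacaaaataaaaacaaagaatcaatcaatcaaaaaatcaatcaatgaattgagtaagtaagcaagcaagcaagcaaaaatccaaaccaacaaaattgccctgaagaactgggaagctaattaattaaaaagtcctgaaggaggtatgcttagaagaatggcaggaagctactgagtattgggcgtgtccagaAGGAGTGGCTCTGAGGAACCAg

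Over the 21 pairs of those 7 promoters, which add Zfp985 and Zfp987, sequence identity ran from 66.0% to 94.1% with a median of 77.4%. Zfp600 and Zfp979 were the closest pair of the 7, at 94.1%. The Rex2 promoter, not among the 7, was 99.2% identical to the Zfp600 promoter shown. A second Zfp600 promoter, also not among the 7, was 50.7% identical to those of Rex2 and Zfp979. The shared run has 21 bases, AGGAGTGGCTCTGAGGAACCA, and ends 1 to 46 bases before the annotated start. On either strand it was found in 9 of 31396 RefSeq promoters of chromosomes 1 to 19 (0.0287%). All 9 lay in domains and belonged to zinc finger genes of chromosome 4: Rex2, Zfp534, Zfp600, Zfp979, Zfp980, Zfp982, Zfp985, Zfp987 and Zfp988. Promoters of Zfp981 and Zfp984, in the same cluster, were searched too and did not hold the run. The 7 promoters that gave the run were among those searched, so their hits and places were fixed in advance. Rex2 and Zfp982 were the hits beyond them. How reads shared by such copies were counted is unstated, so the RNA values of single genes in this cluster are uncertain. Strand use in counting is not given either, so values of overlapping genes are uncertain too, among them Zfp978, whose annotated span covers Zfp991 and Zfp988.

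Promoters wholly inside a domain numbered 655 and were poor in CpG, the base pair step where DNA methylation falls. Their median was 1 CpG in 250 bases (quartiles 1 to 3) against 6 (2 to 16) over all promoters, and their median GC content was 44.8% against 52.4%. The TATA box letters TATAAA were present in 20.6% of them and in 12.4% of all promoters, counting both strands. The letters CCGGAAGT, a form of the ETS motif that ETV2 and its relatives bind, were present in 4 of the 655 (0.611%) and in 2.92% of all promoters. CACGTG, the E-box, was present in 2.29% and 6.02%, and in 9.76% of the 82 promoters of vomeronasal receptors in domains. CCGGAAGT and CACGTG each hold a CpG, and the part of the low CpG content in their shares was not tested. The 27 promoters of zinc finger genes in domains had a median of 3 CpG and none held CCGGAAGT, while 399 zinc finger promoters outside had a median of 11 CpG and 9.02% held it. A match is a match of letters only. Of 1350 domain genes in the count tables, 443 had a promoter in the RefSeq table.

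The 712 domains covered 55.5 Mb. They made up 1.60% of the merged regions by number and 18.8% by length, and 2.25% of the chromosomes' span. The median length was 48.1 kb (quartiles 36.4 and 82.9 kb) and the longest domain had 1047 kb. The 143 domains of 100 kb or more held 50.9% of the length. No gap in lengths separated the members from the rest: 26 domains measured 30 to 31 kb and 33 shared regions measured 29 to 30 kb. The 6 domains at 30 kb had a mean log2 enrichment of 1.08 to 1.72, and the 9 shared regions at 29.8 kb, just outside, had 0.57 to 2.10.

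Chromosome 7 held the most domains, 117, with 12.5 Mb or 8.62% of its length and 526 genes. Chromosome 12 had 5.29% of its length in domains, chromosome 14 had 4.67% and chromosome 17 had 3.60%. Chromosome 15 had 5 domains and 0.205%. Domains lay near each other. When domains within 1 Mb were joined there were 194 clusters, of which 98 were a single domain, and the 17 clusters of 10 or more held 304 domains. The cluster with the most was chr12:17882201-24456400 with 34 domains and 4.70 Mb, followed by chr14:3000001-7661400 with 32 and chr7:5223401-12676800 with 31.

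**Figure D1:**
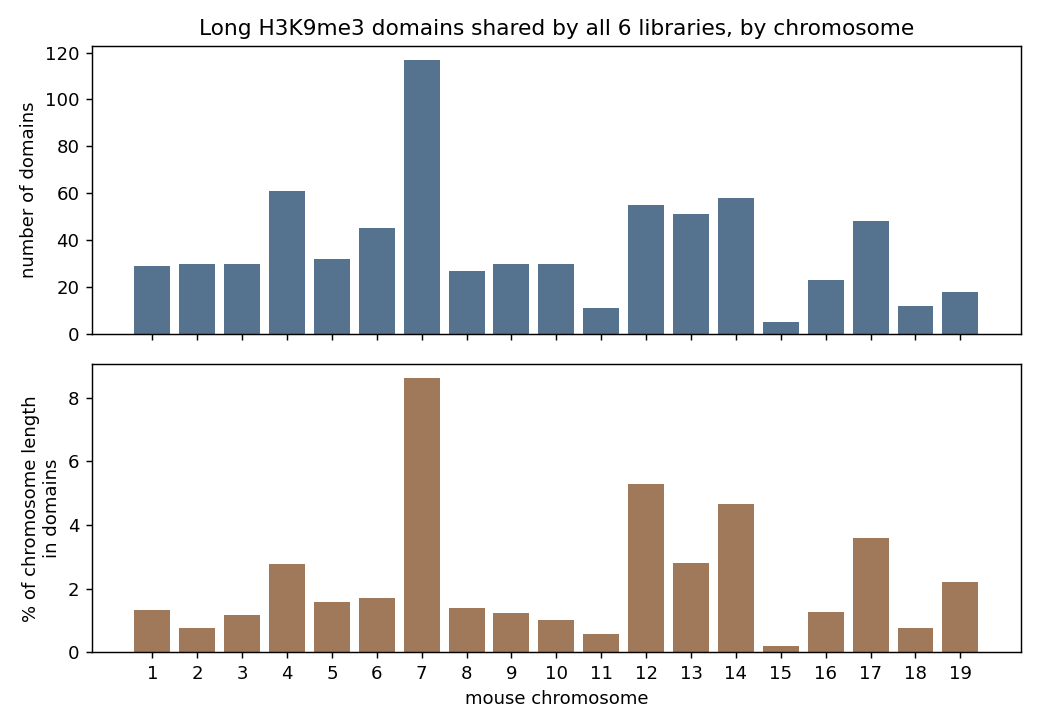
Number of domains (top) and percent of chromosome length inside domains (bottom) for mouse chromosomes 1 to 19, one bar per chromosome. Chromosome 7 stands highest in both, with 117 domains and 8.62% of its length, and chromosome 15 lowest, with 5 domains and 0.205%.

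The domains were not empty of genes. They held 1624 RefSeq genes, 29.3 per Mb against 18.9 per Mb outside, and 9.89 protein-coding genes per Mb against 8.36. Pseudogenes were 42.0% of the domain genes and 20.1% of all genes, and snoRNA genes 8.56% and 2.73%. Even so, 217 domains held no gene and 383 held no protein-coding gene. At least 1 gene lay in 495 domains, and gene-rich domains were few: 26 had 10 genes or more and 1 had 67.

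Predicted genes known only by a model or clone name were the largest class, with 987 of the 1624 domain genes (60.8%). Tandem gene families made up much of the rest, and their shares are to be read against the 3.45% of all RefSeq genes that lay in domains. Vomeronasal receptors, which detect pheromones, had 152 of 623 annotated genes in domains, spread over 78 domains. Odorant receptors had 59 of 1420, or 4.16%, close to the share over all genes. Immunoglobulin and T cell receptor segments had 80 of 646, zinc finger genes 52 of 440, and secretoglobins, small secreted proteins of glands and mucosa, 23 of 53. Major urinary proteins, which carry scent compounds, had 12 of 22, Mas-related sensory receptors 12 of 32, PRAME family genes 13 of 50 and clustered protocadherins, the adhesion proteins of neurons, 8 of 58. Lists added after the domain genes had been seen gave 50 of 53 Obox genes, a family of homeobox genes of oocytes and early embryos. They also gave 8 of 9 Zscan4 genes, 17 of 17 Snord115 and Snord116 genes and 7 of 15 Esp genes, which code for exocrine peptides. Only 6 of the 50 Obox genes and 4 of the 8 Zscan4 genes were protein-coding. Some small families had no member in a domain, which at 3.45% of all genes is near the background: 0 of 21 interferons, 0 of 43 taste receptors, 0 of 38 kallikreins, 0 of 22 sulfotransferases and 0 of 16 trace-amine receptors lay in a domain.

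The longest domain, chr12:20030401-21077400, spanned 1047 kb and 18 genes. Its log2 enrichment was 1.73, 2.09 and 2.11 in the untreated libraries and 1.78, 1.69 and 1.54 in the DOX libraries. In untreated 2 it was called as 9 regions over 99.3% of its length, and in the Er71-Flag DOX library as 51 regions over 87.0%. The domain chr7:8339001-8902000, with 563 kb, held 17 genes, with the receptors Vmn2r44 and Vmn2r45 and several Vmn2r pseudogenes among them, and had an enrichment of 1.78 ± 0.22 (SD, n = 6). At chr7:33243801-33753400, secretoglobin genes lay under 510 kb of mark with an enrichment of 1.67 ± 0.15. The highest mean enrichment, 2.46 ± 0.13, was found at chr3:93196801-93230800 over Flg2, which codes for a protein of the skin barrier. It rested on 2001 to 4258 ChIP counts and 417 to 768 input counts per library. The domain with the most genes, chr7:59471201-59603000, held 67 predicted genes in 132 kb at 1.53 ± 0.32, and chr7:15021001-15464200 held 25, Obox2 and Obox pseudogenes, at 1.78 ± 0.26.

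Enrichment is log2 of ChIP counts over input counts, less a constant of each library that the deposited values imply. Its mean over the 6 libraries had a median of 1.31 over the domains (quartiles 1.07 and 1.54, range 0.15 to 2.46) and of 1.13 over 16627 shared regions under 30 kb. The SD over libraries had a median of 0.15 in the domains and 0.22 in the shorter regions. Neither length nor gene number tracked enrichment among the domains: Spearman's rho was 0.07 and -0.02 over 712 domains, which share libraries. Enrichment was above 0 in every library for every domain, which follows from calls being required.

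Input density marked out part of the domains. In 84 domains the input counts per called kb were over 2 times the median domain, up to 56.5 times, and these 9.56 Mb had a median log2 enrichment of 0.62 against 1.35 for the other 628. Of the 84, 31 lay on chromosome 14, with a median enrichment of 0.38, and 18 on chromosome 4.

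Before and after DOX the mark was compared over libraries. Mean enrichment over the domains was 1.14, 1.34 and 1.38 in the untreated libraries and 1.37, 1.21 and 1.19 in the DOX libraries, given in the order D2, D3 and Er71-Flag D2. The groups overlapped, with means of 1.29 ± 0.13 and 1.26 ± 0.10 (SD, n = 3 each) and a difference of -0.03 (exact permutation test, two-sided, p = 0.9). The smallest p that 3 against 3 allows is 0.1, and a region had to be called in all 6 libraries, which keeps out regions lost in either group.

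The called length inside the domains was 47.1, 52.5 and 49.8 Mb without DOX and 48.1, 44.7 and 41.1 Mb with it. The lowest value with DOX, in the Er71-Flag library, and the next, in D3, lay below all untreated libraries, while D2 lay among them. The means were 49.8 ± 2.7 and 44.6 ± 3.5 Mb (SD, n = 3 each), a difference of -5.17 Mb that did not pass (exact permutation test, two-sided, p = 0.2). ChIP counts inside the domains fell in the same 2 libraries, at 3688752 and 2999999 against 4304388 to 5724282 without DOX, and their part in the called length was not tested. In all 6 libraries domains held 23.2% to 28.1% of the called length and 29.5% to 36.9% of the ChIP counts in called regions.

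**Figure D2:**
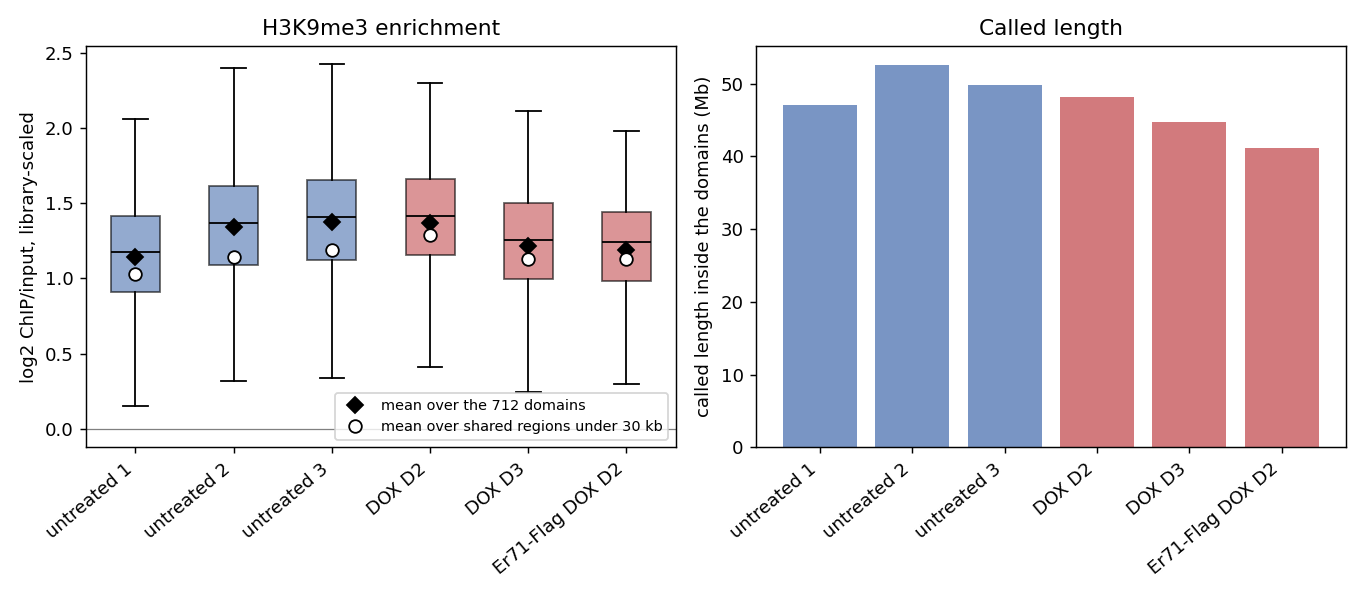
Left, log2 ChIP to input ratio scaled per library over the 712 domains in each of the 6 ChIP libraries (box, quartiles; line, median; whiskers, up to 1.5 times the box height; outlying domains not drawn), with the mean over domains (diamond) and over shared regions under 30 kb (open circle). Right, called length inside the domains in Mb. Boxes of untreated (blue) and DOX (red) libraries overlap, with means of 1.14 to 1.38 and 1.19 to 1.37.

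No single domain was called. By limma over all 17339 shared regions with Benjamini-Hochberg adjustment, 0 of 712 domains and 0 regions in all (0.0%) had an adjusted p under 0.05, and the smallest among the domains was 0.604. At an unadjusted p under 0.05 there were 8 domains (1.12%) beside 1032 shared regions (5.95%). The median change with DOX was -0.02 log2 in the domains and 0.05 over all shared regions. Centring every library on its median shared region shifted this balance, and 84 domains (11.8%) then had an unadjusted p under 0.05, beside 1258 shared regions (7.26%), with 0 passing adjustment.

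RNA from the domains was scarce. Of 1350 domain genes in the count tables, 237 (17.6%) had no count in any of 18 libraries, against 3.17% of 34585 positioned genes outside. A mean of 1 CPM or more was reached by 137 (10.2%) against 39.4% outside, and among protein-coding genes by 18.3% against 65.0%. Zinc finger genes were the exception, with 38 of 50 (76.0%) at this level, against 90.1% of 383 outside. Few receptor genes passed the low-count filter. Of 59 odorant receptors in domains 0 passed in iETV2 and in experiment 3, 1 in the H188A line and 6 in the fit of both lines, and of 128 vomeronasal receptors 5, 6, 6 and 22 did.

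The genes with the most RNA were few. Kcnq1ot1, the long noncoding RNA of an imprinted region of chromosome 7, had a mean of 396 CPM over 18 libraries, and Hjurp, the chaperone that loads the centromeric histone CENP-A, had 315. The next 6 were zinc finger genes: Zfp990 (145 CPM), Zfp979 (128), Zfp984 (59.9), Zfp981 (50.6), Zfp985 (46.9) and Zfp978 (45.3). Of 40 domain genes with a mean of 10 CPM or more, 25 were zinc finger genes. All of these 6 lie in the chromosome 4 cluster. CPM are not scaled by gene length, so this is an order of RNA counts.

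In libraries labelled DKO, domain genes were more often higher than lower than their controls. Of 1350 domain genes 211 were tested and 161 passed edgeR's quasi-likelihood test at an adjusted p under 0.05, 145 higher and 16 lower, where 69.3% of all 20426 genes tested passed (35.6% higher, 33.7% lower). The low-count filter keeps a silent gene only where it is high in 1 group, so genes with a mean of 1 CPM or more in both groups were also counted. Of 90 such domain genes, 73 were higher (81.1%) and 7 lower (7.78%), against 33.7% and 44.1% of 13681 genes in all, and the median log2 change was 0.94 against -0.08. The zinc finger genes among them were 29 higher and 2 lower of 32, and the other domain genes 44 higher and 5 lower of 58. Of 329 zinc finger genes outside, 150 were higher and 93 lower. Of 34 in shared regions under 30 kb, 23 were higher and 3 lower. Without the domains of high input, 103 of 125 genes tested passed, 95 higher and 8 lower. Higher genes lay in 93 of the 452 domains with a gene in the count tables. Summed RNA of odorant, vomeronasal and trace-amine receptor genes outside the domains, taken as a measure of background, was also higher in every library labelled DKO, at 63.1, 67.6 and 67.2 CPM against 19.3, 19.04 and 54.9 CPM in the controls. Receptor genes in the domains summed to 6.31 to 8.13 and 1.57 to 4.62 CPM. With the outside sum added to the fit, an alternative chosen after seeing the data, 133 domain genes passed, 120 higher and 13 lower.

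Summed RNA of the 50 zinc finger genes was 336, 355 and 358 CPM in the controls and 1076, 1132 and 1165 CPM in libraries labelled DKO. The groups did not overlap. The sum over 383 zinc finger genes outside was 11812 to 11840 CPM and 13478 to 13596 CPM, a far smaller step in proportion. Among the single genes, Zfp936 had 0.323, 0.549 and 0.727 CPM in the controls and 37.9, 39.5 and 40.8 CPM in libraries labelled DKO, a log2 change of 6.06 ± 0.13 (SE; edgeR adjusted p = 2.41e-20). Zfp936 lies on chromosome 7 in the domain chr7:43091601-43208800, whose enrichment was 1.07 ± 0.15. On chromosome 13, Zfp640 in chr13:66611401-66737400 rose from 0.255 to 0.632 CPM to 15.7 to 17.8 CPM, a log2 change of 5.16 ± 0.17 (edgeR adjusted p = 5.56e-17).

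**Figure D3:**
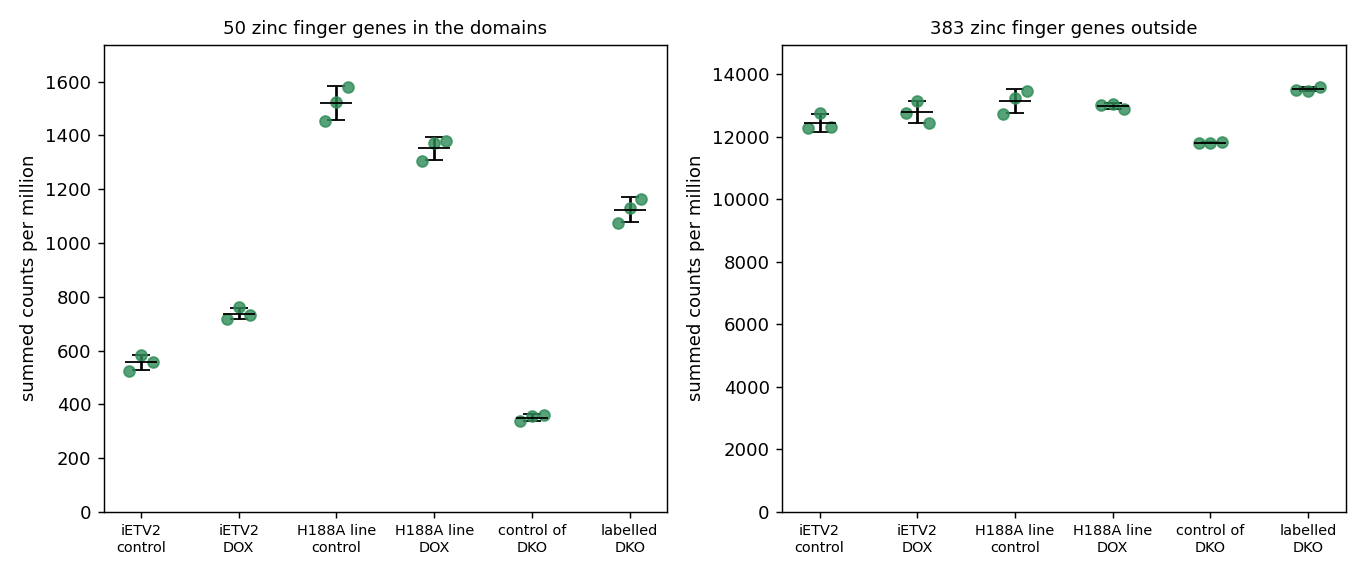
Summed CPM of zinc finger genes in each RNA library (points), with the mean (line) and SD (error bar, n = 3), for 50 genes in the domains (left) and 383 outside (right). In the domains, libraries labelled DKO sit at 1076 to 1165 and their controls at 336 to 358. Outside, all 18 libraries lie between 11812 and 13596.

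The cluster chr4:145403001-147830600 held 16 domains, 1.78 Mb of mark and 15 zinc finger genes, the most of any cluster. It was singled out with the RNA results known. Its domains had a median enrichment of 0.76 (0.22 to 1.33), below the 1.31 of all domains, and 15 of the 16 were over the input limit of 2 times the median domain. In the domain chr4:147227601-147406600, 179 kb long over Zfp978 and Zfp988, enrichment was 0.76, 1.06 and 1.11 without DOX and 0.91, 0.65 and 0.65 with it, with 99.2% to 100% of its length called. Over the cluster 15 of 16 domains were lower with DOX, by a median of -0.15 log2, and none passed (limma, smallest adjusted p = 0.899, 0 at an unadjusted p under 0.05). A lower mark was not particular to this cluster. In chr12:17882201-24456400, which held 0 zinc finger genes of the count tables, every domain was lower with DOX too. The changes there ran from -0.07 to -0.71 log2 and none passed, while 1 of 16 genes tested was higher with DOX in iETV2.

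Of the chromosome 4 cluster's 40 genes tested in libraries labelled DKO, 33 were higher and 1 lower, where 35.6% of all genes tested were higher and 33.7% lower. With a mean of 1 CPM or more in both groups there were 18 genes, of which 16 were higher and 1 lower. Zfp978 had 2.78, 1.80 and 1.98 CPM in the controls and 60.0, 60.5 and 61.9 CPM in libraries labelled DKO (log2 change 4.67 ± 0.10, edgeR adjusted p = 2.26e-20). Zfp981 had 3.63 to 5.01 CPM and 104 to 116 CPM (4.46 ± 0.08). Rex2 had 0.601 to 0.667 CPM and 20.2 to 24.3 CPM (4.98 ± 0.12). These groups lay far apart, in genes that were named for their small adjusted p. Zfp534, Zfp980, Zfp988, Zfp985, Zfp600 and Zfp987 changed by 4.79, 4.14, 4.09, 3.71, 3.67 and 3.47.

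Neighbours in the same cluster differed in size of change. The Zfp979 promoter is 94.1% identical to the Zfp600 promoter shown and 50.7% identical to a second Zfp600 promoter. Zfp979 had 63.8 to 70.0 CPM in the controls and 164 to 197 CPM in libraries labelled DKO. Its log2 change was 1.31 ± 0.06. Zfp984 had 29.8 to 32.5 and 32.8 to 35.0 CPM (0.02 ± 0.05, edgeR adjusted p = 0.801). Zfp991 fell by 0.16 ± 0.06 (edgeR adjusted p = 0.0273), a call that was lost without control replicate 3 or any 1 of the 3 libraries labelled DKO. Both were already among the more expressed members in the controls, at 20.7 CPM or more, as was Zfp979.

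**Figure D4:**
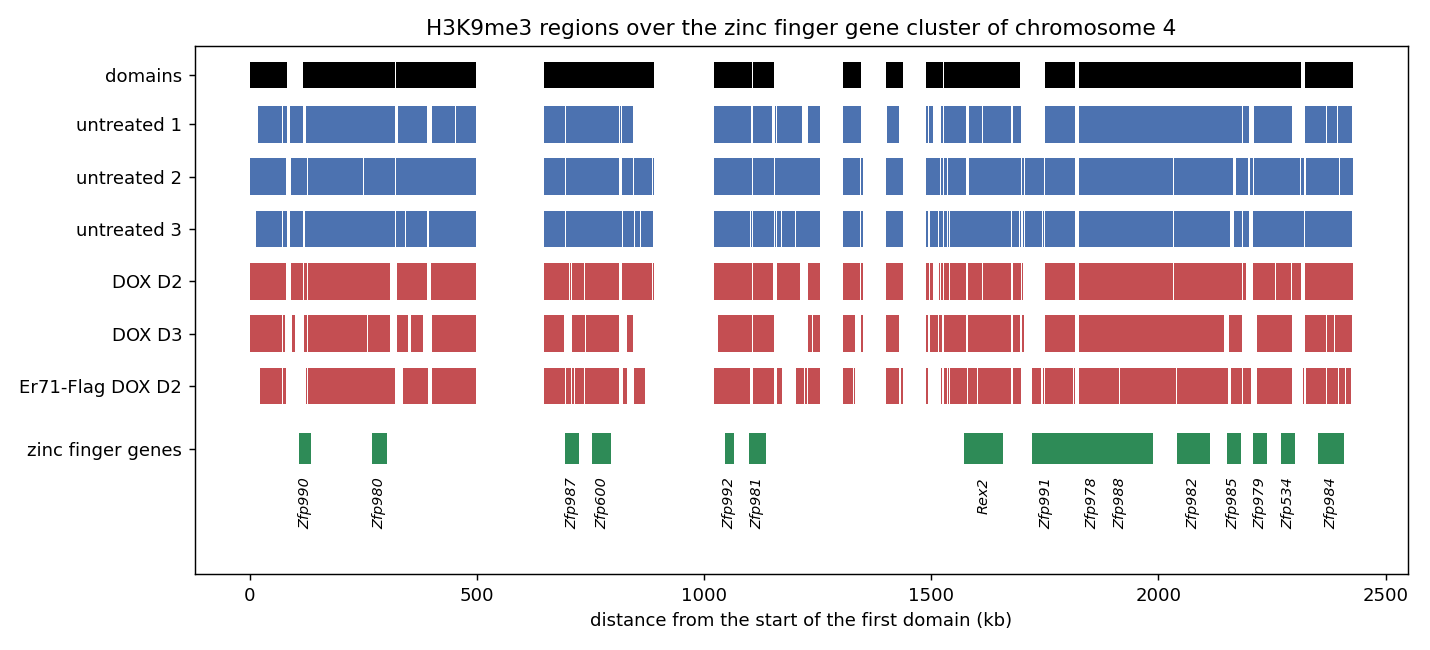
Map of the chromosome 4 cluster in kb from the start of its first domain: the 16 domains (black), the authors' called regions in 3 untreated (blue) and 3 DOX (red) libraries, and the spans of 15 zinc finger genes (green). In 91 of 96 pairs of a domain and a library, called regions cover 50% or more of the domain (lowest pair 19.7%), and called stretches with no black bar above them are merged regions under 30 kb or without a call in 1 library.

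Genes that fell in libraries labelled DKO were few. They were 14 of 173 domain genes tested outside the zinc finger family (8.09%) and 2 of 38 within it (5.26%). Over all genes tested 33.7% were lower and 35.6% higher. Sfi1, which codes for a centrin-binding protein, had 13.1, 12.6 and 15.5 CPM in the controls and 3.40, 4.32 and 4.61 CPM, and fell by 1.86 ± 0.11 (edgeR adjusted p = 2.64e-12). Its domain, chr11:3124601-3201000, had an input density 10 times the median domain. Hjurp had 430, 422 and 423 CPM and 318, 309 and 311 CPM, and fell by 0.57 ± 0.04 (edgeR adjusted p = 4.41e-12). Rbm12b2 fell by 0.30 ± 0.07 and Zfp81 by 0.21 ± 0.05, and the call of Zfp81 was lost with the receptor sum in the fit (edgeR adjusted p = 0.0975). Mroh2a fell by 1.76 ± 0.63 (edgeR adjusted p = 0.0165), but without control replicate 3 its change was 0.03, and with the receptor sum in the fit it was -3.57. Kcnq1ot1 was higher, with 302 to 313 CPM in the controls and 619 to 628 CPM (0.89 ± 0.03, edgeR adjusted p = 8.86e-16). Of 8 protocadherins tested, 7 were higher and 1 lower. Of 128 vomeronasal receptors 6 passed the filter, and since genes near 0 in the controls pass it only through the other group, no direction is read from them.

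Other marker lists moved with the labelled genotype, in a comparison where 69.3% of all genes tested passed. All 6 stem cell markers were higher in libraries labelled DKO, and all 6 endothelial and blood markers (Kdr, Pecam1, Cdh5, Tal1, Gata2, Lmo2) were lower, with sums of 780 to 799 CPM in the controls and 138 to 142 CPM. Of 6 fibroblast markers 4 were lower and 2 higher, with sums of 428 to 439 and 40.4 to 43.4 CPM. All 5 germ cell markers were higher, at sums of 2.77 to 3.05 and 21.4 to 23.8 CPM. Of 4 mesoderm markers T, Mixl1 and Eomes were higher, with sums of 212 to 215 and 774 to 787 CPM. Of 4 neural markers 3 were higher and of 4 endoderm markers 2 were lower. Markers of 2-cell-like cells were at 0.0421 to 0.431 CPM in sum in both groups and none was tested. The genotype and this shift in cell state cannot be told apart in these libraries, and in bulk RNA fewer cells of a type and less RNA per cell cannot be told apart either.

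Genes that write or read the mark moved both ways in libraries labelled DKO. Of 21 tested, 10 were higher and 9 lower, where 69.3% of all genes tested passed (35.6% higher, 33.7% lower). The split by direction was near that of all genes tested. Suv39h1 had 263 ± 4.5 CPM in the controls and 109 ± 3.9 CPM in libraries labelled DKO (SD, n = 3), and Cbx3, which codes for an HP1 protein, had 126 ± 5.2 and 53.4 ± 1.1. Setdb1 was higher, at 134 ± 2.1 and 168 ± 3.1, as were Trim28, at 425 ± 5.7 and 535 ± 6.4, and Atrx, at 345 ± 11 and 822 ± 6.2. Of 11 erasers 7 were higher and 4 lower, to be read against the same shares. H3K9me3 was not measured in these cells.

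With DOX in iETV2, fewer domain genes passed, and nearly all of those were higher. Of 220 tested, 53 passed edgeR's test, 50 higher and 3 lower, where 27.0% of 22025 genes tested passed (13.7% higher, 13.3% lower). The share that passed, 24.1%, was close to that background, while the split by direction was not. Among 119 domain genes with a mean of 1 CPM or more in both groups, 40 were higher (33.6%) and 1 lower, against 17.5% and 17.3% of 14643 genes in all. The median log2 change was 0.24 against 0.01. Zinc finger genes gave 19 higher and 0 lower of 36 in the domains, 67 and 29 of 337 outside, and 6 and 3 of 36 in shared regions under 30 kb. Without DOX replicate 2 the count of 53 was 32, and without the domains of high input it was 31. The 3 lower genes, named after their values were seen, were Krt8-ps, Gm3636 and H2-Bl.

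The summed RNA of zinc finger genes in the domains was 525, 582 and 559 CPM in iETV2 controls and 719, 760 and 733 CPM with DOX. The groups did not overlap. Zfp978 had 6.94, 6.90 and 8.22 CPM in the controls and 23.0, 22.9 and 23.4 CPM with DOX, a log2 change of 1.67 ± 0.08 (edgeR adjusted p = 3.70e-10). Zfp640 had 1.62 to 2.47 and 8.01 to 8.22 CPM (1.93 ± 0.16), and Zfp936 had 2.25 to 2.75 and 7.34 to 9.47 CPM (1.73 ± 0.14). In these 3 genes every DOX library lay above every control, which their choice by small adjusted p all but fixes. Zfp980, Zfp600, Rex2, Zfp981 and Zfp988 rose by 1.57, 1.47, 1.44, 1.37 and 1.31, and Kcnq1ot1 rose from 291 to 372 CPM to 433 to 538 CPM (0.53 ± 0.10, edgeR adjusted p = 0.000758). In the chromosome 4 cluster 18 of 42 genes tested were higher and 0 lower, and in the cluster chr13:65309201-66863200 6 of 9 were higher, where 13.7% of all genes tested were higher. With a mean of 1 CPM or more in both groups, 17 of 25 and 4 of 4 were higher. Other clusters held tested genes that mostly did not pass: of the 8 clusters of 10 or more domains with 5 or more genes tested, 5 had 0 or 1 gene higher, among them chr12:17882201-24456400 with 1 of 16 and chr14:3000001-7661400 with 0 of 19 and 1 lower.

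Here too other genes moved with DOX. The 6 endothelial and blood markers were all higher, with sums of 18.2 to 22.3 and 436 to 445 CPM. Of the stem cell markers Zfp42, Dppa5a and Esrrb were higher and Pou5f1 lower, at 404 ± 29 and 306 ± 45 CPM, and the sums overlapped at 606 to 651 and 546 to 648 CPM. Of the mesoderm markers Mixl1 rose by 2.10 ± 0.08, Mesp1 by 2.41 ± 0.13 and Eomes by 0.90 ± 0.07, while T fell by 0.33 ± 0.07. Of 4 neural markers 3 were lower, Sox1 by -1.87 and Nes by -0.88 among them, and of 3 endoderm markers tested Foxa2 fell by 2.5 and Sox17 by 0.96 while Gata6 was higher. All 5 germ cell markers were higher, with sums of 11.4 to 13.3 and 20.9 to 21.7 CPM. Of 21 writers and readers 3 were higher and 1 lower, and of 11 erasers 5 were lower. Over all genes tested 27.0% passed (13.7% higher, 13.3% lower). The lower erasers included Kdm4b at 66.6 ± 1.1 and 45.9 ± 2.1 CPM and Kdm4c at 78.4 ± 5.4 and 57.1 ± 1.8 CPM. The part of these markers, writers, readers and erasers in the domain genes' change was not tested.

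In the H188A line DOX gave few calls. Of 236 domain genes tested 4 passed edgeR's test, all lower, where 3.02% of 21086 genes passed (2.22% higher, 0.801% lower). Leaving out 1 library moved this count to between 0 and 29. The 4 were Zfp936 and, named after their values were seen, Gm21411, Gm14401 and 2410141K09Rik. Zfp936 had 36.0, 41.8 and 38.5 CPM in the controls and 25.9, 30.3 and 27.9 CPM with DOX, and fell by 0.42 ± 0.08 (edgeR adjusted p = 0.0266). That call was lost without control replicate 2 or any 1 of the 3 DOX libraries (edgeR adjusted p of 0.0528 to 0.173), and when the receptor background described next was added to the fit (edgeR adjusted p = 0.119). Summed zinc finger RNA in the domains was 1453, 1526 and 1580 CPM in the controls and 1304, 1371 and 1381 CPM with DOX. The groups did not overlap, and both lay above the iETV2 libraries of experiment 1, where line and experiment cannot be told apart. Of the endothelial and blood markers 5 of 6 were higher with DOX in this line and none of the stem cell markers was called.

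The receptor background also differed among the H188A libraries. Odorant, vomeronasal and trace-amine receptor genes outside the domains summed to 565, 186 and 50.3 CPM in the H188A controls and to 41.9, 91.3 and 35.8 CPM with DOX. Receptor genes in the domains followed, at 58.9, 18.0 and 3.13 CPM in the controls and 1.75 to 6.99 CPM with DOX. With this sum as a covariate 0 domain genes passed. The part of this background in other low domain genes was not tested.

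The difference between the lines in the DOX effect was tested as an interaction, fitted on the 12 libraries of both DOX comparisons and so not independent of either. Of 321 domain genes tested 49 passed edgeR's test, all with a lower effect in the H188A line, where 14.4% of 25516 genes passed (8.22% higher, 6.2% lower). With a mean of 1 CPM or more in all 4 groups, 33 of 110 domain genes were lower and 0 higher, and of zinc finger genes 16 of 36 in the domains were lower and 0 higher, against 26 lower and 19 higher of 334 outside. Zfp936 had the lowest value among the genes named, -2.15 ± 0.16, then Zfp640 with -2.12 ± 0.17 and Zfp978 with -1.88 ± 0.12 (edgeR adjusted p of 2.20e-07, 6.41e-07 and 4.09e-08). Control levels differed between the lines, with Zfp978 at 6.90 to 8.22 CPM in iETV2 and 92.7 to 102 CPM in the H188A line, so the same gene began from unlike levels. Cell state markers differed between these controls too. T was at 862 ± 28 CPM in iETV2 and 0.357 ± 0.19 CPM in the H188A line, and Mixl1 at 74.9 ± 4.2 and 0.479 ± 0.14 CPM (SD, n = 3). The stem cell markers summed to 606 to 651 and 1383 to 1419 CPM. The part of these differences in the interaction was not tested.

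**Figure D5:**
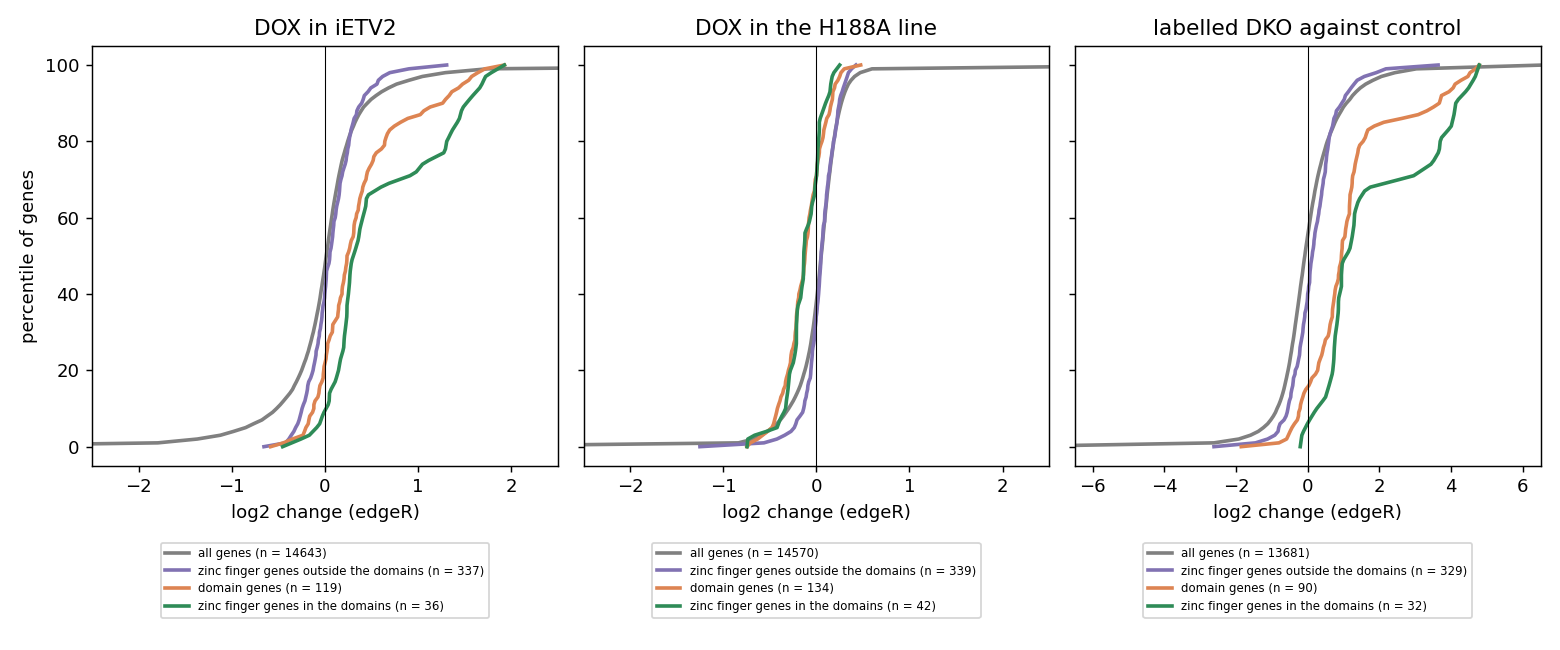
Cumulative distributions of log2 change (edgeR) in 3 RNA comparisons, for genes with a mean of 1 CPM or more in both groups: all genes (grey), zinc finger genes outside the domains (purple), domain genes (orange) and zinc finger genes in the domains (green). The y axis gives the percentile of genes, and the x axis is cut at the limits drawn. Domain genes lie to the right of all genes with DOX in iETV2 (medians 0.24 and 0.01) and in libraries labelled DKO (0.94 and -0.08), and slightly to the left with DOX in the H188A line (-0.12 and 0.05).

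The mark itself, measured in the EB libraries only, is given by kind of domain as a description. Kinds were assigned from genes in the count tables, which are fewer than the RefSeq genes counted above. Domains with a gene higher in libraries labelled DKO had a median enrichment of 1.26 (n = 93), against 1.31 over all domains and 1.34 over 260 domains without a gene in the count tables. Domains with a vomeronasal receptor gene had 1.40 (n = 71), with an odorant receptor gene 1.31 (n = 30) and with a zinc finger gene 1.29 (n = 38). The median change with DOX was -0.11 log2 in domains with a gene higher in libraries labelled DKO and -0.02 in all domains. It was -0.13 in those with a zinc finger gene, -0.10 with a vomeronasal receptor gene and -0.01 with an odorant receptor gene. In those without a gene in the count tables it was 0.04, and no domain of any kind was called.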

How the data were processed

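Per the submitters' processing notes, the tools were featureCounts 2.0.6, HTSeq 2.0.3, StringTie 2.2.1, STAR 2.7.10b, DESeq2 1.18.1, Picard 3.0.0, ChIPseeker, DiffBind and Bowtie, with builds mm10 and GRCm38. The counting tool, the region caller and the strand setting are not given in the sources used here. For 18 RNA libraries the authors deposited raw gene counts (55487 Ensembl genes, 40334911 to 68970038 counts each). For 6 ChIP libraries the authors deposited called regions in whole 200 bp windows, with ChIP and input counts, a score, an FDR (0.05 at most) and p-value, and a log2 fold change, per the file headers. Replicates were not pooled. ChIP counts exist only inside called regions, so ratios and called length were compared and no background outside was available to them.

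Regions were merged by 1 bp of overlap, and a gene counted as inside when 50% or more of its RefSeq GRCm38.p6 span lay in a domain. Positions were found by symbol for 38328 genes (69.1%). Counts were tested in R 4.3.3 with edgeR 4.0.16 (filterByExpr, TMM, quasi-likelihood test, Benjamini-Hochberg over all genes), each experiment on its own, and experiments 1 and 2 in 1 fit for the interaction. Log2 ChIP to input ratios, minus the library constant, were tested with limma 3.58.1 (trend) over all shared regions, and library means with exact permutation tests. CPM are counts scaled to the same total in every library. Promoter letters were searched on both strands with Python 3.11.15, and identity came from global alignment with Biopython, over aligned columns with gaps. The count and limma steps were tested on simulated data.

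Alternatives were DESeq2 1.42.0, RLE scaling, other low-count filters, each library left out, a replicate block, the receptor sum as a covariate, other lengths and overlaps, and, chosen after seeing the data, receptor genes or domains of high input left out and the receptor sum in experiment 3. Named genes were the 8 with the highest mean CPM and the 8 with the smallest adjusted p per comparison and direction, with an informative symbol. The domains, the gene lists and the cluster on chromosome 4 were chosen with earlier results of these data known. Replicate numbers did not pair the samples: correlations of same-numbered libraries were not above 0.1 in every pair of any comparison. The input libraries and chromosomes X and Y were not used in the comparisons.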

Additional observations from a re-analysis of the deposited data

Results flagged for a closer look

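The effect of DOX differed between the lines for 8 named zinc finger genes, by edgeR's interaction test. The effect in the H188A line minus that in iETV2, on the log2 scale, was -1.88 for Zfp978, -1.47 for Zfp988, -2.15 for Zfp936, -1.57 for Zfp981, -2.12 for Zfp640, -1.68 for Zfp980, -1.79 for Zfp600 and -1.73 for Rex2. In iETV2 all 3 DOX libraries lay above all 3 controls for each of them. The 8 were chosen by small adjusted p, which all but fixes such a split, so it adds no support. Of the 8, 1 gene, Zfp936, was called with DOX in the H188A line, as lower, and that call was lost under several alternatives. For the rest, the lack of a call does not show a lack of change.

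Long shared regions were also present on the sex chromosomes, which the comparisons leave out. By the same rule chromosome X held 96 (12.5 Mb, median 77.3 kb, longest 469 kb) and chromosome Y held 783 (64.9 Mb, median 63.4 kb, longest 656 kb). Each library had 4864 to 9565 called regions on chromosome Y.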

How the results depend on the processing

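Counts of domain genes called kept their main direction under the alternatives run. With DOX in iETV2 the count of 53 became 34 for genes wholly inside a domain, 31 without domains of high input, and 32 to 55 when 1 library was left out, the 32 being without DOX replicate 2. In libraries labelled DKO the count of 161 became 103 for genes wholly inside a domain, 103 without domains of high input, and 152 to 166 when 1 library was left out. The interaction count of 49 became 26 without domains of high input and 35 to 52 when 1 library was left out. Fewer genes were tested in the subsets of domains, and without domains of high input the share called in iETV2 was 24.8% against 24.1%. The cause of the drops with 1 library left out was not tested.

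The count for DOX in the H188A line was not stable: against 4 it was 9 with DESeq2, 2 with RLE scaling, 28 with no low-count filter, 10 with a stricter one, 0 with the receptor sum as a covariate, 2 for domains of 50 kb or more and 2 without domains of high input. It was 0 without control replicate 2, DOX replicate 2 or DOX replicate 3, 1 without control replicate 1 or DOX replicate 1, and 29 without control replicate 3. The cause was not tested. With a replicate block the counts were 67 for iETV2, 1 for the H188A line, 159 for libraries labelled DKO and 55 for the interaction. Numbers are shared by name only, with correlations of -0.01, 0.32 and 0.56 for the 3 pairs in iETV2.

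The number of domains was 338 at 50 kb and 1390 at 20 kb. With 1 ChIP library left out, the difference in enrichment with DOX ran from -0.10 to 0.01, that in called length from -6.92 to -3.41 Mb, and the number of domains called stayed at 0. Of named genes, the change of Mroh2a in libraries labelled DKO reversed to 0.031 without control replicate 3, and its range with 1 library left out was -2.25 to 0.031. No block could be made for ChIP, where the DOX libraries carry no replicate numbers. Depth limits the text for genes near 0 counts and for domains with few input counts.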
